A study of Mus musculus with 6 samples.

Results

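The 52 genes described here encode proteins that bring a cell into mitosis and through it: cyclins and their kinases, mitotic kinases, the spindle checkpoint, the kinetochore, the machinery of chromatid separation and cytokinesis, condensin, and transcription factors of the E2F, FOXM1 and B-MYB families. They were taken by gene symbol, from a list drawn up by function with earlier results of these data known. All 52 were found among the 55487 gene rows of the table. Polyadenylated RNA had been sequenced in 6 libraries of bone marrow-derived macrophages from wild-type (WT) female Balb/c mice aged 6 to 12 weeks. In 3 libraries (NP 1 to 3) the macrophages had received nanoparticles at 200 µg/mL for 24 hours, and in the other 3 (PBS 1 to 3) PBS, the vehicle. The treatment label of the NP samples is PEMA, which the labels do not explain, and the series title names poly(lactide-co-glycolide) particles. Cells of both groups had first spent 8 days in medium containing L929-conditioned medium at 20%, the source of the macrophage growth factor M-CSF, and then 24 hours in IL-4 and IL-13 (10 ng/mL each), the cytokines of alternative or M2 activation. They are therefore cultured macrophages that had already grown out of marrow precursors, and it is not stated in the labels if samples within a group came from different cultures or animals. The p-values therefore cover the spread from sample to sample, technical or not, and nothing wider.

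As background, a cell enters mitosis when Cdk1 bound to B-type cyclins is switched on by CDC25 phosphatases and by the Aurora and Polo-like kinases. Condensin then compacts the chromosomes, the kinetochores attach them to the spindle, and the spindle checkpoint holds back the anaphase-promoting complex (APC/C) until every chromosome is attached. Bone marrow-derived macrophages go on dividing for some time in M-CSF, so these transcripts are measurable in such cultures. Many genes of this kind are known to be repressed in resting cells and switched on late in the cell cycle through a pair of short promoter words, the cell cycle homology region (CHR, TTTGAA), read by the MuvB complex with B-MYB and FOXM1, and the CCAAT box, read by NF-Y. E2F factors read words such as TTTCCCGC.

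Those words can be seen in the reference sequence of the promoters. The 5 promoters printed here belong to members that fell most among those with a CHR word or a CCAAT box within the bases shown. Each run gives the 150 bases before the annotated start, 5′ to 3′ on the strand of the gene, from the RefSeq promoter table of build GRCm38.p6, which is reference sequence and was not read from these Balb/c cells. Capitals mark the CCAAT box, which reads ATTGG where it lies on the opposite strand, and the CHR word, which then reads TTCAAA. The positions are chr9:70421555-70421704 on the minus strand for Ccnb2, chr2:164769779-164769928 on the plus strand for Ube2c, chr3:159495283-159495432 on the plus strand for Depdc1a, chr4:118437344-118437493 on the minus strand for Cdc20, and chr11:40733438-40733587 on the minus strand for Hmmr.
Ccnb2: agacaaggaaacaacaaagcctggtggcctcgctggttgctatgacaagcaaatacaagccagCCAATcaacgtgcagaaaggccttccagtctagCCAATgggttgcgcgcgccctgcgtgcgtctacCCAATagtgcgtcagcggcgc
Ube2c: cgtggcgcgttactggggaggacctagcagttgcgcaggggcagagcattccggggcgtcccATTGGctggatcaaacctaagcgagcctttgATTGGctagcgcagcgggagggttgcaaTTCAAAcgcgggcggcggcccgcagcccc
Depdc1a: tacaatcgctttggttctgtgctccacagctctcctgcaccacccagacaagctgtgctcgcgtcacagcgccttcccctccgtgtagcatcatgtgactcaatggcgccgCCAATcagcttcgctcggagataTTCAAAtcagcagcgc
Cdc20: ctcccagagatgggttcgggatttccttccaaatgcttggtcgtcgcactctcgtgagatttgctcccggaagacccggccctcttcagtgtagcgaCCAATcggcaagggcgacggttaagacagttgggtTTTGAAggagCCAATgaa
Hmmr: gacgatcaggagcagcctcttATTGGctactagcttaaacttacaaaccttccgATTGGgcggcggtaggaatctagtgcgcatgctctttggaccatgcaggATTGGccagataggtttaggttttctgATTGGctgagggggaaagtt
The Ccnb2 run holds 3 CCAAT boxes and the Hmmr run 4, with a CHR word of each lying just after the start, outside the bases printed. In Ube2c, Depdc1a and Cdc20 the CHR word stands before the start, at -29, -16 and -18 counted from it. Anln fell by a similar amount, but its CHR words begin 21 and 28 bases after the start and it has no CCAAT box, so its promoter is not printed.

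The table held 46 promoters for 42 of the 52 genes, each 300 bases long from 250 before to 50 after the start. It gave no promoter for Ccna2, Ccne2, Cdc25c, Aurkb, Spc24, Incenp, Tpx2, Smc4, Foxm1 and Depdc1b. TTTGAA was present on either strand in 30 of the 46 promoters (65.2%), against 17.9% of all 32851 promoters in the table and 12.4% of the 13121 promoters of tested genes. CCAAT was present in 33 (71.7%), against 37.4% of all promoters and 38.0% of those of tested genes. Both words stood together in 27 promoters (58.7%), against 6.95% and 5.16%, and in 1 member promoter words overlapped. An E2F-type word (TTTCCCGC, TTTGGCGC, TTTCGCGC or TTTGCCGC, either strand) was found in 6 (13.04%), against 2.26% and 3.87%, and 20 (43.5%) held at least 2 CCAAT boxes, against 11.7% and 14.2%. No word of the 3 kinds was found in 10 member promoters (21.7%), those of Nusap1, Nuf2, Birc5, Pttg1, Ncaph, Mad2l1, Mybl2, Plk4, Ccne1 and E2f1, against 50.5% of all promoters and 52.9% of those of tested genes. A CHR word began within 45 bases of the start in 27 member promoters (58.7%) and in 1528 of all 32851 (4.65%), a window chosen after the positions were seen. These are descriptions of letters in a window, with no test, and an absent word says only that those letters are not there.

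**Figure D1:**
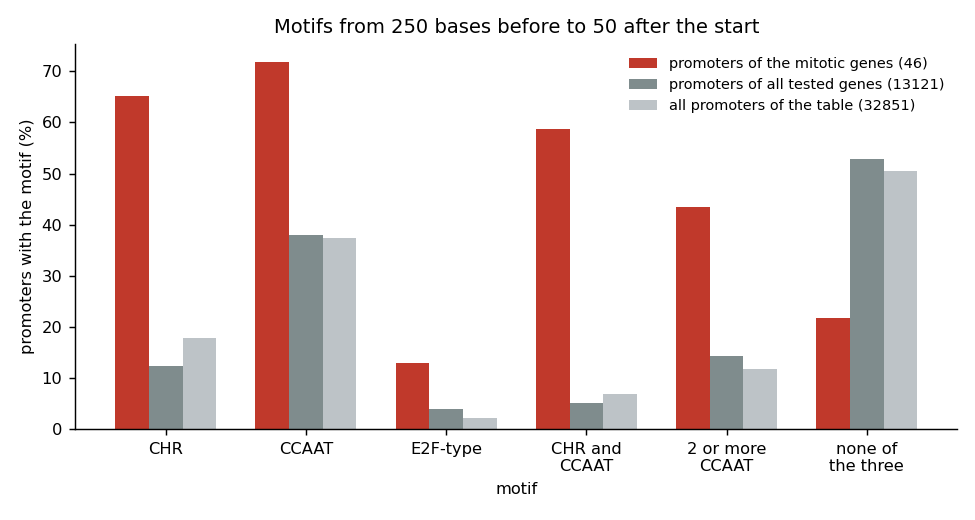
Percent of promoters (vertical axis) that hold each word or combination (horizontal axis), for the 46 promoters of the mitotic genes, the 13121 of all tested genes and the 32851 of the whole table. The CHR and CCAAT bars of the mitotic genes stand at 65.2% and 71.7%, above both comparison sets, and the bar for none of these words stands at 21.7%, below them.

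Total counts were 69450411, 61057868 and 60702163 in NP 1 to 3, against 56265590, 41974957 and 51079771 in PBS 1 to 3. Every NP library was thus deeper than every PBS library, and each member was covered by at least 157 counts in each library, from 1697 counts over the 6 libraries for Cdc25c to 154087 for Mki67. PBS 2 and PBS 3 stood apart in the sum over 1768 olfactory and vomeronasal receptor genes, which was 9.62 to 11.8 counts per 1000000 counts (CPM) in the NP libraries, against 12.4, 136 and 150.4 CPM in PBS 1 to 3. Results that rest on these libraries are given with and without them. In what follows, CPM of single genes are relative to the counts over tested genes scaled by TMM factors, means are given with their SD over 3 libraries, log2 fold changes are NP minus PBS with their standard error (SE), and adjusted p is from limma voom with Benjamini-Hochberg adjustment over all 14478 tested genes.

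All 52 genes were lower in macrophages given nanoparticles than in those given PBS, with adjusted p under 0.05, and 0 were higher. The list was drawn up with earlier results known, so its direction is not independent evidence. Over all tested genes, 21.4% were called lower and 19.8% higher. The median log2 fold change of the 52 was -1.10, from -1.53 for Ccnb2 to -0.25 for E2f1, while the median over all tested genes was -0.00. A decrease of at least 2-fold was found for 34 of the 52, against 2.67% of all tested genes; 13 others lay between -0.5 and -1 and 5 (Plk4, Ccne1, Cdk2, Bub3 and E2f1) above -0.5. In 51 of the 52 every NP library lay below every PBS library, which held for 26.8% of all tested genes. The exception was E2f1. Adjusted p ran from 2.50e-05 for Nusap1 to 0.0307 for E2f1. All 52 passed the filter on low counts.

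**Figure D2:**
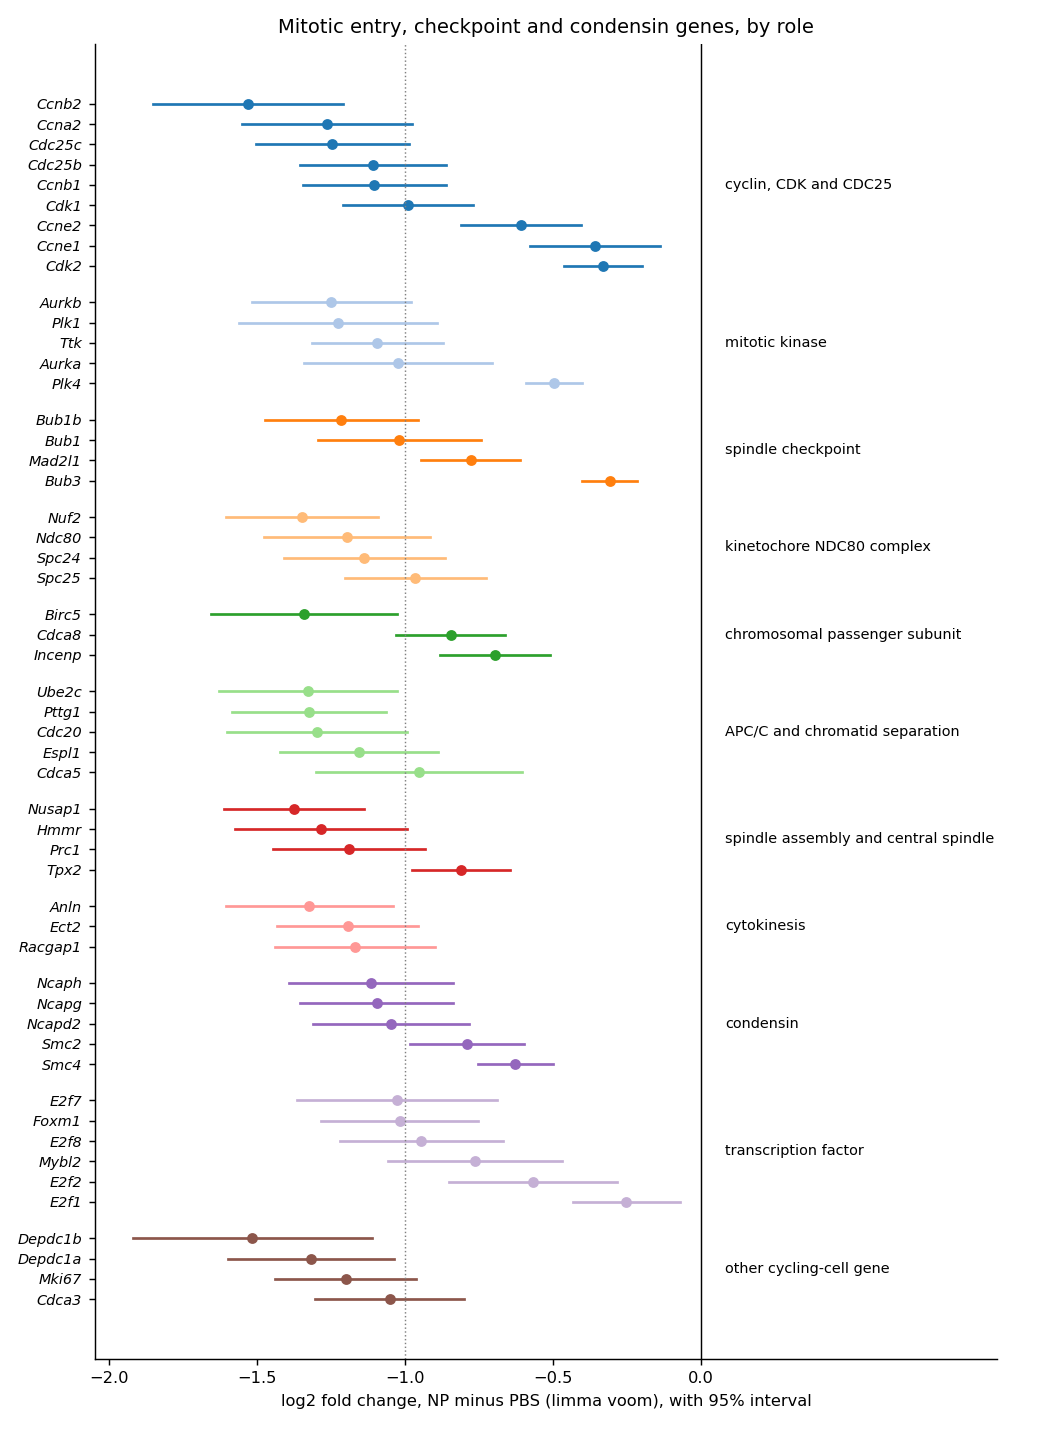
Log2 fold change, NP minus PBS (horizontal axis), with its 95% interval for each of the 52 genes, grouped by role down the page and ordered by size within a role; the dotted line marks a 2-fold decrease. Every interval lies below 0, and in most roles the points lie near -1, with Cdk2, Ccne1, Plk4, Bub3 and E2f1 to the right of -0.5.

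The 3 NP libraries did not fall equally. Summed over the 52 genes, the level was 1532, 2122 and 1694 CPM in NP 1 to 3 (1783 ± 305), against 3560.0, 3329 and 3586 CPM in PBS 1 to 3 (3492 ± 142). Relative to its own PBS mean, the median gene stood at -1.29, -0.76 and -1.09 on the log2 scale in NP 1, NP 2 and NP 3, and at 0.03, -0.07 and 0.04 in PBS 1 to 3. NP 2 was the highest NP library for 52 of the 52 genes and NP 1 the lowest for 50, and the order NP 1, NP 3, NP 2, then the PBS libraries held for 49. The median gene showed in NP 2 a share of 0.629 of the decrease it showed in NP 1 and NP 3, with shares from 0.262 for E2f1 to 0.814 for Plk4. The median coefficient of variation was 20.8% among NP libraries and 5.03% among PBS libraries. In the labels, NP 2 and PBS 2 carry the library numbers 12 and 13, while the other 4 libraries are numbered from 4 to 8, and PBS 2 had the lowest summed level of the PBS libraries. What these numbers stand for is not explained in the labels, and their part in the result was not tested beyond the fits that follow. With the numbers 12 and 13 as a covariate, 52 of the 52 were lower (20.3% of all tested genes) and 34 at least 2-fold. Without NP 2 and PBS 2, 52 were lower (20% of all tested genes) and 38 at least 2-fold, with a median of -1.30. The members varied together across NP libraries, and their count is not 52 separate observations. Without NP 1, the 2-fold count was 21 in place of 34. When PBS 1 stood alone for PBS, assumed to vary like the NP libraries, 50 of the 52 were called lower, 36 of them at least 2-fold, and the median log2 fold change of the 52 was -1.15. A lower level in bulk RNA cannot tell fewer dividing cells from less of these RNAs per cell.

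**Figure D3:**
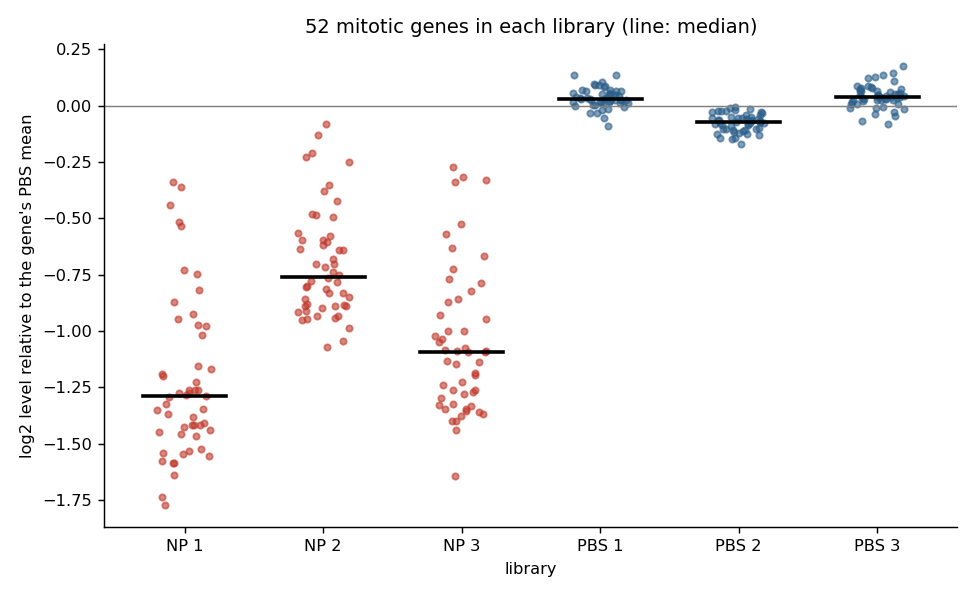
Log2 level of each of the 52 genes relative to its PBS mean (vertical axis) in each library (horizontal axis), with a bar at the median. NP 1 and NP 3 sit lowest, with medians of -1.29 and -1.09, NP 2 lies between them and PBS at -0.76, and the PBS libraries lie at 0.03, -0.07 and 0.04.

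Among the cyclins, cyclin-dependent kinases and CDC25 phosphatases, 9 of 9 were lower and 5 of them at least 2-fold, with a median log2 fold change of -1.10. For this and the following roles, the shares of all tested genes were 21.4% called lower and 2.67% lower by at least 2-fold. Every NP library lay below every PBS library for 26.8% of all tested genes, so a lack of overlap alone is common. Cdk1, the kinase that starts mitosis (chr10:69335146-69352938 on GRCm38), gave 25.0, 35.2 and 28.1 CPM in NP 1 to 3, against 58.0, 55.5 and 59.2 CPM in PBS 1 to 3. All 3 NP values lay below all 3 PBS values, and the log2 fold change was -0.99 (SE 0.10, adjusted p = 7.60e-05). Ccnb1, its main mitotic partner, gave 24.2, 34.4 and 25.6 CPM in NP 1 to 3, against 60.3, 55.3 and 62.5 CPM in PBS 1 to 3. Its log2 fold change was -1.10 (SE 0.11, adjusted p = 7.31e-05), and NP 2 again stood nearest to the PBS libraries. Ccnb2, the other B-type cyclin (chr9:70407692-70421547), fell most of the 52 and gave 11.3, 18.2 and 12.1 CPM in NP 1 to 3, against 38.6, 35.3 and 42.5 CPM in PBS 1 to 3. The 2 groups were far apart, with a log2 fold change of -1.53 (SE 0.14, adjusted p = 5.96e-05). Ccna2, the cyclin of S phase and G2, changed by -1.26 (adjusted p = 8.65e-05), and the phosphatases Cdc25b and Cdc25c, which remove inhibitory phosphates from Cdk1, by -1.11 and -1.25. The E-type cyclins act earlier, at the start of S phase with Cdk2, and changed by -0.36 (Ccne1, adjusted p = 0.0153) and -0.61 (Ccne2, adjusted p = 6.69e-04). Cdk2 itself gave 27.9, 32.8 and 30.4 CPM in NP 1 to 3, against 38.9, 36.6 and 38.5 CPM in PBS 1 to 3. Its groups did not overlap either, but its log2 fold change was -0.33 (SE 0.06, adjusted p = 0.00170), the smallest of this role. The call for Ccne1 was lost without NP 1, without NP 3 or without PBS 1 (adjusted p = 0.0694, 0.0874 and 0.0773), and when PBS 1 stood alone for PBS (0.0778).

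**Figure D4:**
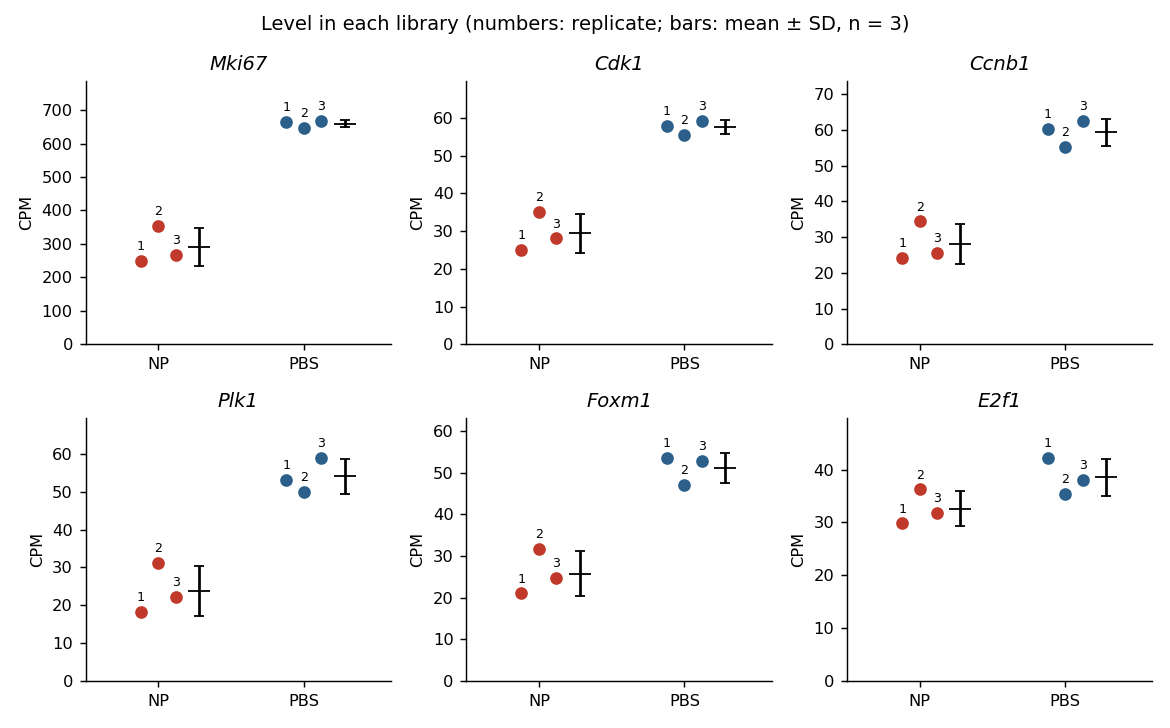
CPM of Mki67, Cdk1, Ccnb1, Plk1, Foxm1 and E2f1 (vertical axes, each from 0) in the NP and PBS libraries; points are libraries numbered by replicate, and bars give the mean ± SD (n = 3). NP 2 is the highest NP point in every panel, and groups overlap only for E2f1, where NP 2 at 36.3 CPM lies above PBS 2 at 35.3 CPM.

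Of the mitotic kinases 5 of 5 were lower, 4 of them at least 2-fold. Plk1, the Polo-like kinase of mitotic entry and spindle assembly (chr7:122159439-122169873), gave 18.2, 31.1 and 22.2 CPM in NP 1 to 3, against 53.2, 49.99 and 59.0 CPM in PBS 1 to 3. On the log2 scale it changed by -1.23 (SE 0.15, adjusted p = 2.28e-04), with no overlap between groups. Aurkb, the Aurora kinase of the chromosomal passenger complex (chr11:69045647-69051664), fell most of this role and gave 12.97, 19.5 and 14.8 CPM in NP 1 to 3, against 38.9, 33.4 and 37.4 CPM in PBS 1 to 3. The change was -1.25 (SE 0.12, adjusted p = 6.58e-05). Aurka, the Aurora kinase of the centrosome, changed by -1.02 (adjusted p = 4.50e-04), and Ttk, the kinase that starts the checkpoint signal at unattached kinetochores, by -1.09 (4.85e-05). Plk4, which drives centriole duplication and not mitotic entry, gave 33.3, 35.5 and 33.1 CPM in NP 1 to 3, against 49.7, 47.0 and 46.8 CPM in PBS 1 to 3. It fell least of the kinases, at -0.50 (SE 0.04, adjusted p = 3.81e-05), and its 3 NP libraries differed little from each other.

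The spindle checkpoint, which delays anaphase, had 4 of 4 members lower and 2 at least 2-fold. Bub1b, the BubR1 subunit of the inhibitor that binds Cdc20 (chr2:118598211-118641591), gave 17.2, 26.02 and 19.5 CPM in NP 1 to 3, against 49.4, 44.9 and 48.4 CPM in PBS 1 to 3. The decrease was -1.22 (SE 0.12, adjusted p = 6.32e-05) on the log2 scale. Bub3, which carries Bub1 and BubR1 to the kinetochore, gave 80.9, 86.0 and 81.5 CPM in NP 1 to 3, against 103, 97.7 and 107 CPM in PBS 1 to 3. Its decrease was small but larger than the spread between libraries, at -0.31 (SE 0.04, adjusted p = 3.95e-04). Bub1, the checkpoint kinase at kinetochores, changed by -1.02 and Mad2l1, which also binds Cdc20, by -0.78 (adjusted p = 2.16e-04 and 6.53e-05).

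All 4 subunits of the NDC80 complex, the part of the kinetochore that holds microtubules, were lower, and 3 by at least 2-fold, with a median of -1.17. Nuf2 (chr1:169497934-169531464) gave 12.5, 19.1 and 14.7 CPM in NP 1 to 3, against 37.5, 37.8 and 39.9 CPM in PBS 1 to 3. Its log2 fold change was -1.35 (SE 0.11, adjusted p = 3.75e-05). Spc25, at the other end of the rod, gave 15.2, 22.2 and 17.2 CPM in NP 1 to 3, against 35.5, 33.6 and 35.6 CPM in PBS 1 to 3. It fell least of the 4, at -0.97 (SE 0.11, adjusted p = 1.30e-04), and neither gene's groups overlapped. Ndc80 and Spc24 changed by -1.20 and -1.14 (adjusted p = 1.01e-04 and 1.13e-04).

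The chromosomal passenger complex corrects faulty attachments and later directs cytokinesis; its 3 members listed beside Aurkb were all lower, 1 of them at least 2-fold. Birc5, or survivin, which brings the complex to the centromere (chr11:117849251-117855743), gave 17.2, 28.8 and 20.8 CPM in NP 1 to 3, against 55.3, 50.9 and 58.2 CPM in PBS 1 to 3. On the log2 scale it changed by -1.34 (SE 0.14, adjusted p = 1.01e-04). Incenp, the scaffold on which Aurkb is activated, gave 101, 132 and 111 CPM in NP 1 to 3, against 193, 176 and 186 CPM in PBS 1 to 3. It was the most abundant of the 3 on the CPM scale and changed by -0.70 (SE 0.08, adjusted p = 1.99e-04). Cdca8, or borealin, changed by -0.85 (adjusted p = 6.80e-05).

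Genes of the APC/C and of chromatid separation were lower in 5 of 5 cases and by at least 2-fold in 4, with a median of -1.30. Ube2c, the ubiquitin-conjugating enzyme that works with the APC/C (chr2:164769898-164778822), whose promoter is printed above, gave 16.5, 25.2 and 18.3 CPM in NP 1 to 3, against 47.8, 44.3 and 55.4 CPM in PBS 1 to 3. The log2 fold change was -1.33 (SE 0.13, adjusted p = 8.51e-05). Cdc20, the activator of the APC/C in anaphase, changed by -1.30 (adjusted p = 1.02e-04). Pttg1, or securin, which blocks the cohesin-cutting protease until anaphase, changed by -1.33, and Espl1, or separase, that protease, by -1.16 (adjusted p = 4.21e-05 and 9.39e-05). Cdca5, or sororin, which protects cohesin before anaphase, gave 4.53, 7.92 and 5.67 CPM in NP 1 to 3, against 11.4, 10.7 and 11.7 CPM in PBS 1 to 3. It fell least in this role, at -0.95 (SE 0.16, adjusted p = 0.00112), and NP 2 came nearest to the PBS libraries.

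In the spindle group 4 of 4 genes were lower and 3 at least 2-fold. Nusap1, a microtubule-bundling protein (chr2:119618298-119651244), gave 21.8, 31.8 and 24.0 CPM in NP 1 to 3, against 67.1, 63.4 and 67.7 CPM in PBS 1 to 3. It had the smallest adjusted p of the 52, with a log2 fold change of -1.38 (SE 0.11, adjusted p = 2.50e-05). Tpx2, which activates Aurka on the spindle, gave 66.6, 83.7 and 70.9 CPM in NP 1 to 3, against 130.1, 123 and 133 CPM in PBS 1 to 3. It changed by -0.81 (SE 0.07, adjusted p = 5.06e-05), the least of the 4. Hmmr, a spindle protein that also binds hyaluronan, changed by -1.29, and Prc1, which cross-links the microtubules of the central spindle, by -1.19 (adjusted p = 8.51e-05 and 6.83e-05).

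The 3 cytokinesis genes were all lower by at least 2-fold. Anln, or anillin, a scaffold of the contractile ring (chr9:22332012-22389188), gave 36.3, 56.9 and 41.4 CPM in NP 1 to 3, against 112, 105 and 113 CPM in PBS 1 to 3. The change was -1.32 (SE 0.13, adjusted p = 6.48e-05). Racgap1, a part of centralspindlin, gave 32.2, 49.3 and 36.8 CPM in NP 1 to 3, against 87.9, 82.3 and 91.0 CPM in PBS 1 to 3. Its change, -1.17 (SE 0.12, adjusted p = 9.52e-05), was close to that of Anln, as was that of Ect2, the exchange factor that activates RhoA at the cleavage site, at -1.20 (adjusted p = 4.46e-05).

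Condensin, the ring complex that compacts mitotic chromosomes, had 5 of 5 measured subunits lower and 3 at least 2-fold. Those 3 were the subunits of condensin I that condensin II does not share. Ncaph, the kleisin that closes the condensin I ring (chr2:127103809-127133954), gave 16.5, 26.05 and 19.7 CPM in NP 1 to 3, against 44.7, 41.9 and 44.9 CPM in PBS 1 to 3. Its log2 fold change was -1.12 (SE 0.12, adjusted p = 1.41e-04), and those of Ncapg and Ncapd2 were -1.10 and -1.05 (adjusted p = 1.04e-04 and 1.48e-04). Smc4, an ATPase subunit that both condensins use, gave 139.7, 167 and 151 CPM in NP 1 to 3, against 237, 228 and 240.1 CPM in PBS 1 to 3. It fell by less, at -0.63 (SE 0.06, adjusted p = 5.10e-05), as did its partner Smc2, at -0.79 (adjusted p = 1.26e-04).

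Of the 6 transcription factors 6 were lower and 2 at least 2-fold, with a median of -0.86. Foxm1, an activator of late cell cycle genes, gave 20.999, 31.6 and 24.7 CPM in NP 1 to 3, against 53.5, 47.1 and 52.7 CPM in PBS 1 to 3. On the log2 scale it changed by -1.02 (SE 0.12, adjusted p = 1.79e-04). E2f7, an atypical E2F that represses E2F targets (chr10:110745439-110787384), gave 6.59, 10.95 and 8.15 CPM in NP 1 to 3, against 18.5, 15.1 and 16.9 CPM in PBS 1 to 3. It fell most of the factors, at -1.03 (SE 0.15, adjusted p = 6.21e-04), and the related repressor E2f8 changed by -0.95 (adjusted p = 3.24e-04). Mybl2, or B-MYB, which joins MuvB at CHR promoters, changed by -0.77 (adjusted p = 0.00148). E2f1, an activator of genes for S phase, gave 29.8, 36.3 and 31.7 CPM in NP 1 to 3, against 42.2, 35.3 and 38.1 CPM in PBS 1 to 3. The groups overlapped, since NP 2 lay above PBS 2, and the log2 fold change was -0.25 (SE 0.08, adjusted p = 0.0307). The other activator, E2f2, changed by -0.57 (adjusted p = 0.00584). The call for E2f1 was lost without NP 1, NP 3, PBS 1 or PBS 3 (adjusted p = 0.179, 0.165, 0.16 and 0.0778), and that for E2f2 without NP 3 (0.0549) and when PBS 1 stood alone for PBS (0.0531).

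The remaining 4 genes of cycling cells were all lower by at least 2-fold. Mki67, which coats mitotic chromosomes and is used as a marker of dividing cells (chr7:135689784-135716361), gave 248, 354 and 268 CPM in NP 1 to 3, against 664, 648 and 667 CPM in PBS 1 to 3. The change was -1.20 (SE 0.11, adjusted p = 4.44e-05), and its PBS libraries differed little from each other. Depdc1b, a DEP domain protein (chr13:108316332-108407782), gave 2.31, 4.52 and 3.21 CPM in NP 1 to 3, against 9.75, 8.70 and 8.84 CPM in PBS 1 to 3. It had the second largest decrease of the 52, at -1.52 (SE 0.18, adjusted p = 2.01e-04), and NP 2 lay well above NP 1 and NP 3. Cdca3, known in Xenopus for promoting the breakdown of the Cdk1 inhibitor Wee1, gave 19.3, 28.6 and 22.0 CPM in NP 1 to 3, against 46.9, 45.3 and 49.99 CPM in PBS 1 to 3. Its log2 fold change was -1.05 (SE 0.11, adjusted p = 1.11e-04), while Depdc1a, the relative of Depdc1b, changed by -1.32 (adjusted p = 6.24e-05).

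Per kilobase of exon, the level was highest for Mki67 (28.8 CPM per kb in NP and 65.5 in PBS), Smc4 (29.3 CPM per kb in NP and 45.1 in PBS) and Incenp (26.5 CPM per kb in NP and 42.7 in PBS). It was lowest for Cdc25c (0.635 CPM per kb in NP and 1.49 in PBS), E2f7 (0.951 CPM per kb in NP and 1.87 in PBS) and Depdc1b (0.999 CPM per kb in NP and 2.72 in PBS). Across the 52 genes the log2 of the mean PBS level per kilobase and the log2 fold change had a Pearson correlation of -0.04. It is a description over genes that share 6 libraries, and the PBS level also enters the fold change. By promoter word, the median log2 fold change was -1.16 in the 27 genes with CHR and -1.03 in the 15 without, -1.10 in 29 with CCAAT and -1.12 in 13 without, and -1.01 in 6 with an E2F-type word and -1.14 in 36 without. The 52 genes lie on 15 chromosomes. Some counts are uncertain. Depdc1a shares 56.0% of its 75-base words with other genes, mostly Gm5596, which had 41 counts in all, Ccnb1 shares 18.9% (Ccnb1-ps, 33 counts) and Mybl2 17.1% (Gm3320, 44 counts). How the counting treated strand is not given in the sources used here, and reads in exons shared with a gene on the opposite strand cannot be assigned to either. Such exons made up 17.4% of Ccne2 (with Ints8), 13.4% of Ncapg (with Lcorl) and 12.5% of Ccna2 (with Exosc9), and these neighbours had 13675, 17855 and 16222 counts.

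Related genes fell by different amounts, so their proportions within a library also differed. A set of 4 ratios of CPM per kilobase was chosen after the values were seen, so they are described without a test. The B-type cyclins over the E-type cyclins stood at 1.71, 1.98 and 1.65 in NP 1 to 3, against 3.12, 3.12 and 3.62 in PBS 1 to 3. The condensin I subunits Ncapd2, Ncapg and Ncaph over their condensin II counterparts stood at 0.370, 0.536 and 0.430 in NP 1 to 3, against 0.735, 0.714 and 0.757 in PBS 1 to 3. In both ratios every NP library lay below every PBS library, so B-type cyclins and condensin I subunits made up a smaller part of each ratio there. Most of the condensin II level was Ncaph2, at 22.3 CPM per kb in NP and 25.9 in PBS. Ncapd3 stood at 3.12 in NP and 4.86 in PBS, and Ncapg2 at 3.30 in NP and 5.44 in PBS. The condensin ratio thus mainly sets the condensin I subunits against Ncaph2, which changed least of the condensin II subunits, at -0.22. Bub1b over Bub3 was 0.349, 0.496 and 0.393 in NP 1 to 3, against 0.787, 0.754 and 0.739 in PBS 1 to 3. Birc5 with Aurkb over Incenp was 0.407, 0.495 and 0.432 in NP 1 to 3, against 0.661, 0.648 and 0.695 in PBS 1 to 3. The log2 differences of the 4 ratios, in the order given, were -0.89, -0.74, -0.90 and -0.59.

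**Figure D5:**
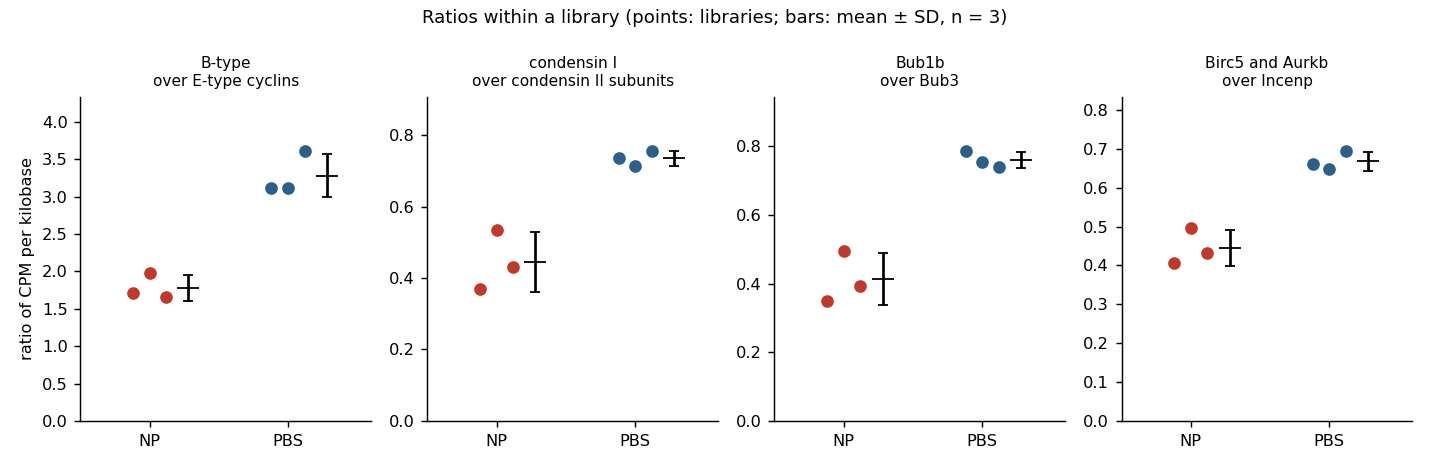
Ratios of CPM per kilobase within a library (vertical axes, each from 0) for B-type over E-type cyclins, condensin I over condensin II subunits, Bub1b over Bub3, and Birc5 with Aurkb over Incenp, in NP and PBS libraries; points are libraries and bars the mean ± SD (n = 3). In each panel all NP points lie below all PBS points, with NP 2 the highest NP point.

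Other genes of the same machinery were taken from 6 lists chosen for function, of which the spindle and kinetochore lists had the lowest medians. Of all tested genes, 21.4% were called lower and 19.8% higher. Of 15 other spindle and cytokinesis genes 14 were lower, 10 of them at least 2-fold, and 0 higher, with a median of -1.07. The spindle kinase Nek2 gave 20.0 ± 3.72 CPM in NP libraries, against 49.6 ± 2.92 CPM in PBS libraries (n = 3 each), a change of -1.33 (SE 0.10, adjusted p = 2.37e-05). The microtubule polymerase Ckap5 changed by -0.43 and the spindle pole protein Aspm by -1.36 (adjusted p = 3.25e-05 and 4.46e-05), while the septin Sept9 was not called, at -0.08. Of 16 other checkpoint and kinetochore genes 13 were lower, 3 at least 2-fold, and 1 higher, with a median of -0.78. Nsl1 and Dsn1 of the MIS12 complex changed by -0.91 and -0.71, and Knl1, on which the checkpoint proteins assemble, by -1.17 (adjusted p = 3.16e-05, 3.47e-05 and 5.36e-05). Zwint, a kinetochore protein that binds Knl1, was the gene called higher, at 0.15 (adjusted p = 0.00333).

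The other 4 lists had medians nearer to 0. Their counts are to be read beside the shares of all tested genes, 21.4% called lower and 19.8% higher. Of 17 APC/C subunits and inhibitors 6 were lower, none of them 2-fold, and 2 higher, with a median of -0.09. The core subunit Anapc5 changed by -0.45, the APC/C inhibitor Fbxo5 by -0.95 and the chain-extending enzyme Ube2s by -0.35 (adjusted p = 5.82e-05, 1.15e-04 and 1.73e-04), while the subunits Anapc7 and Anapc16 were higher, at 0.24 and 0.18 (adjusted p = 0.00146 and 0.00763). Of 14 other genes of CDK control 8 were lower, 2 at least 2-fold, and 2 higher, with a median of -0.15. The Cdk1-binding protein Cks2 changed by -1.03, cyclin F (Ccnf) by -0.88 and Mastl, the Greatwall kinase, by -1.06 (adjusted p = 7.10e-05, 9.01e-05 and 9.39e-05). The CDK-activating kinase Cdk7 and the PP2A subunit Ppp2r2a were higher, at 0.18 and 0.17 (adjusted p = 0.0300 and 0.00223), but the call for Cdk7 was lost without any of NP 1, NP 3, PBS 1 or PBS 3 (adjusted p = 0.0896, 0.108, 0.0776 and 0.0731).

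Of 16 genes of condensin II and cohesin, a list that also holds the DNA topoisomerase gene Top2a, 11 were lower, 4 at least 2-fold, and 1 higher, with a median of -0.27. The condensin II subunits Ncapd3, Ncapg2 and Ncaph2 changed by -0.65, -0.73 and -0.22 (adjusted p = 9.90e-05, 2.04e-04 and 4.51e-04). The cohesin subunit Rad21 changed by -0.44, the cohesin protector Sgo2a by -1.11 and the cohesin acetyltransferase Esco2 by -1.25 (adjusted p = 3.65e-05, 6.74e-05 and 9.04e-05). Wapl, which releases cohesin from chromatin, was higher at 0.10 (adjusted p = 0.0267), but leaving out PBS 2 or PBS 3 ended the call (adjusted p = 0.0508 and 0.0716). Of 12 genes for MuvB, DP and other E2F proteins 7 were lower, none 2-fold, and 0 higher, with a median of -0.16. The E2F partners Tfdp2 and Tfdp1 changed by -0.59 and -0.38, and Mybl1, or A-MYB, by -0.71 (adjusted p = 3.16e-05, 4.37e-04 and 4.51e-04). When PBS 1 stood alone for PBS, Anapc7, Anapc16, Zwint, Ppp2r2a and Wapl were no longer called (adjusted p = 0.0595, 0.0921, 0.0662, 0.0582 and 0.232).

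Markers of macrophages and of other cells in the cultures are given beside these results, and their part in them was not tested. The shares of all tested genes were 21.4% called lower and 19.8% higher. All 9 macrophage markers were measured, 6 of them lower and 1 higher, with summed levels of 9719.5 to 10854 CPM in NP and 12297 to 12700 CPM in PBS libraries. Most of this sum was Lyz2, with 6738 ± 387 CPM in NP and 8330 ± 167 CPM in PBS libraries. The marker called higher was Cd68, with a log2 fold change of 0.14. Of 6 alternative activation markers 4 were lower, and the sum of the 6 was 850.3 to 984 CPM in NP and 1806 to 2099 CPM in PBS libraries. The largest part was Mrc1, with 467 ± 24.1 CPM in NP and 1165 ± 106 CPM in PBS libraries. Of 7 osteoclast markers 6 were tested, 3 higher and 1 lower, with sums of 1211 to 1433 CPM in NP and 858 to 975 CPM in PBS libraries, and Calcr at 0. Most of this sum was Atp6v0d2, a proton pump subunit, with 1279 ± 119 CPM in NP libraries, against 849 ± 59.1 CPM in PBS libraries (n = 3 each). Of 6 stem and progenitor markers 2 were tested and 1 was lower. The sum was 4.36 to 5.27 CPM in NP and 11.4 to 12.7 CPM in PBS libraries, and nearly all of it was the marker called lower. The other tested marker, Gata2, was not called, with a log2 fold change of -0.05 (adjusted p = 0.964). The marker called lower was Cd34, a surface protein of progenitors. It gave 4.10, 5.04 and 4.18 CPM in NP 1 to 3, against 11.7, 11.7 and 10.7 CPM in PBS 1 to 3. On the log2 scale it changed by -1.36 (SE 0.09, adjusted p = 1.40e-05), with every NP library below every PBS library, which held for 26.8% of all tested genes.

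Markers of each other lineage summed to under 4 CPM in every library. All 6 mast cell and basophil markers were at 0. Of 8 fibroblast markers 4 were tested, 1 lower and 1 higher, with sums of 2.26 to 2.75 CPM in NP and 2.702 to 3.43 CPM in PBS libraries. Of 9 neutrophil markers 2 were tested and 1 was higher (0.901 to 1.152 CPM in NP, 0.666 to 0.835 CPM in PBS), with Ly6g and Camp at 0. The 5 B cell markers included 0 tested genes (0.0864 to 0.115 CPM in NP, 0.124 to 0.858 CPM in PBS). Of the 6 T and NK cell markers 1 was tested and not called (1.19 to 1.47 CPM in NP, 1.10 to 2.72 CPM in PBS), with Ncr1 at 0. In PBS 1 to 3 this sum was 1.10, 2.72 and 2.29 CPM, and the B cell sum 0.124, 0.858 and 0.685 CPM. The higher values thus lay in PBS 2 and PBS 3, which also stood apart in the receptor genes. Cd3e, which was not tested, had 1, 55 and 34 counts in PBS 1 to 3. Of the 7 erythroid markers 1 was tested and not called (0.0864 to 0.180 CPM in NP, 0.196 to 0.255 CPM in PBS), with Hbb-bs and Hbb-bt at 0.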

How the data were processed

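Per the labels, libraries were read as pairs of 151 bp. Expected (estimated) counts per gene, unscaled for depth, were deposited for the 6 libraries in 1 table. All values were whole numbers. Per the submitters' processing notes, STAR 2.7.8a, RSEM 1.3.3, cutadapt 2.3, FastQC 0.11.8 and MultiQC 1.7 were used on build GRCm38, without their roles. Which annotation release and strand setting were used is not given in the sources used here. Of 55491 rows, 4 reporter constructs at 0 were left out.

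The layout of the table, with quoted names that contain spaces, kept an automatic check from reading its unit, so edgeR and DESeq2 were not run. limma voom (limma 3.58.1, R 4.3.3) was fitted on group alone over 14478 genes, with 4 residual degrees of freedom, TMM factors of 0.979 to 1.02 and an offset of 0.5. Genes had at least 0.171 CPM, equal to 10 counts at the median depth, in 3 libraries and 15 counts in total. TMM and the filter were written out after their published definitions, and the fit was tested on simulated data. The CPM of the filter and of the receptor gene sums use unscaled totals. Members, roles, other lists and tests were chosen with earlier results of these data known. Values in every library are printed for a fixed panel (Mki67, Cdk1, Ccnb1, Plk1 and Foxm1) and for the members with the largest and smallest change in each role; of each other list, the 3 genes with the smallest p and those called against the direction of the list are named.

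Coordinates and exonic lengths are from GENCODE M21 (GRCm38), and promoters from RefSeq (GRCm38.p6). RSEM divides reads that match several genes, so near-identical copies carry uncertain counts. Libraries of the same group differed by a chi-square per gene of 4.92 to 19.6, more than sampling noise. Alternatives were other scaling, filters, weights, limma-trend, a covariate for the library numbers in the labels (12 and 13 against 4 to 8), a replicate block, and leaving out libraries. The values of 2 marker genes are not reported here.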

Additional observations from a re-analysis of the deposited data

How the results depend on the processing

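Over 16 alternatives, 49 to 52 of the 52 genes were called lower and 0 higher, and no gene changed sign. The share of all tested genes called lower ran from 8.12% (no filter on low counts) to 25.4% (sample quality weights), against 21.4% in the main fit. Calls were lost for E2f1, Ccne1 and E2f2: E2f1 and Ccne1 also with no filter on low counts (adjusted p = 0.13 and 0.0656), which raised the tested genes to 27636. The replicate block left 51 lower, without E2f1 (adjusted p = 0.0616). Same-numbered samples showed no positive correlation of their deviations from the group means (-0.0673, -0.157 and -0.122). These values do not settle if such samples shared a culture or animal. The count lower by at least 2-fold was 21 to 38 when 1 replicate was left out, against 34, with 21 without NP 1. The median log2 fold change was -1.24 to -0.96 when 1 replicate was left out, and -1.30 without PBS 2 and NP 2, against -1.10; the cause was not tested. Genes called higher in other lists were few and moved: CDK control from 2 to 1 (library totals, no filter, replicate block, PBS 1 as the only PBS library), condensin II and cohesin from 1 to 0 (library totals, replicate block, PBS 1 only), APC/C from 2 to 0 and checkpoint and kinetochore from 1 to 0 (PBS 1 only). When 1 replicate was left out these counts were 1 to 2 for CDK control, 0 to 1 for condensin II and cohesin, and 2 to 3 for APC/C. In the 100 bases before the start alone, CHR was found in 26.1% of member promoters in place of 65.2%. An E2F-type word was found in 2.17% in place of 13.04%. That window leaves out the 50 bases after the start and those more than 100 before it. In some members, such as Plk1 and Bub1b, the only CHR word began after the start, at 30 and 40. In the 100 bases, the shares of all promoters were 5.77% for CHR and 0.846% for an E2F-type word, and of tested genes 3.25% and 1.43%. The E2F-type share was then 1 of 46 promoters, too few to set apart from these. For the 4 ratios, an analysis chosen after seeing the data, the only alternatives run left out libraries. In each ratio every NP library lay below every PBS library, so leaving out libraries could not change the direction. edgeR and DESeq2 were planned and not run. Each of the 52 had at least 157 counts per library; counting error and the spread between libraries were not separated gene by gene.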
